A study of Mus musculus with 9 samples.

Results

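The genes described here are the 37 genes that lie on the mouse mitochondrial chromosome: 13 code for proteins, 2 for ribosomal RNAs and 22 for transfer RNAs. They were chosen by their position alone, as all genes whose symbol starts with mt-, and all 37 were found among the 55401 genes of the deposited table. Of these, 18 reached a normalized count of 10 or more in 3 or more of the 9 libraries and were tested: all 13 protein genes, both rRNA genes and 3 of the tRNA genes. RNA was sequenced from primary fibroblasts that had been isolated from newborn mouse skin (wild-type genotype), in 3 groups of 3 libraries. The first group received TCM, which is DMEM with 10% fetal bovine serum conditioned for 24 h by YUMM1.7 cells (a mouse melanoma line), after treatment with Cleanascite, a reagent that removes lipids; that group is called lipid-depleted TCM here. The second group received TCM as conditioned, and the third was the control. All 3 groups were fibroblasts of the same kind, maintained in DMEM with 10% fetal bovine serum and 1% P/S. The labels give neither the control's medium during treatment nor the length of treatment. Nothing in them says that replicates are different animals or cultures. The p-values therefore measure only how these libraries spread, which may be technical.

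The mitochondrial genome is a small circle that is copied into RNA from both strands as long precursors. Most genes follow one another with hardly a base between them, and tRNAs set between the others are cut out to release the mRNAs and rRNAs. All of its proteins are subunits of the respiratory chain or of ATP synthase, where they join many more subunits made from nuclear genes. Its rRNAs and tRNAs serve the mitochondrial ribosome, whose proteins are all made from nuclear genes. In fibroblasts, as in most cells, these RNAs are abundant, and they are shaped by nuclear-encoded factors for transcription, processing and decay.

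Sequences of some genes are given first because they decide how reads can be assigned. All are from the GENCODE M21 transcripts of the GRCm38 build, 5′ to 3′. The end of mt-Atp8 (chrM:7915-7969, plus strand) is shown with the 43 bases that also belong to mt-Atp6 in capitals, and mt-Nd4l (chrM:9877-10173, plus strand) with the 7 bases shared with mt-Nd4 in capitals. The first 294 of the 297 bases of mt-Nd4l are identical to a nuclear pseudogene, Gm10222.
mt-Atp8 end: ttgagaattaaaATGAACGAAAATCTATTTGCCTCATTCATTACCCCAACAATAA
mt-Nd4l: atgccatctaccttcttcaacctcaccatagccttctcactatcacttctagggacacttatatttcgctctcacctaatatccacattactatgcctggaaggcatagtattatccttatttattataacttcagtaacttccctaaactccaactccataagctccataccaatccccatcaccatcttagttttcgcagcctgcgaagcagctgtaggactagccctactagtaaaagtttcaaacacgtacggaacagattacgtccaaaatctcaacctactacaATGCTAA
The 4 tRNA genes with the most reads follow, with their anticodon in capitals, because they lie at the ends of other genes or on the minus strand, where reads of tRNAs were found. They are mt-Tw (tryptophan, chrM:4950-5016, plus strand), mt-Ts1 (serine, chrM:6870-6938, minus strand), mt-Tp (proline, chrM:15356-15422, minus strand) and mt-Tq (glutamine, chrM:3772-3842, minus strand).
mt-Tw: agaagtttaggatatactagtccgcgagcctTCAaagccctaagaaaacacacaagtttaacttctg
mt-Ts1: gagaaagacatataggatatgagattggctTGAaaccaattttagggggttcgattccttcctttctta
mt-Tp: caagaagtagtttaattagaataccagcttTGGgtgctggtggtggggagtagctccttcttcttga
mt-Tq: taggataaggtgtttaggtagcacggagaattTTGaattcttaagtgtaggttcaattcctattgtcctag

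Values are normalized counts, that is, each library's read counts over its size factor, and a log2 change is a difference of log2(normalized count + 1). This scale understates changes of genes with few reads. A gene is called when its adjusted p is below 0.05 (limma, Benjamini-Hochberg adjustment over the 16950 genes tested). Whole reads recovered from the values ranged from 51015024 to 64965906 per library.

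The TCM libraries differed more among themselves than those of the other groups: chi-square per degree of freedom between replicates was 15.5 to 37.7 in TCM, against 3.37 to 7.99 in lipid-depleted TCM and 2.43 to 6.68 in control. The summed level of 8 fibroblast markers was 1476776 to 1527687 in lipid-depleted TCM, 1117477 to 1307390.1 in TCM and 2249958 to 2316071 in control, and all 8 were detected in every library. Col1a1, Col1a2 and Col3a1 carried most of that sum; of the 8, 4 were called higher and 3 lower in TCM than in control. The summed level of 6 melanocyte and melanoma markers was 275 to 380.0 in lipid-depleted TCM. It was 284 to 346 in TCM and 276 to 325 in control. Mlana had 29.8, 37.5 and 29.3 in lipid-depleted TCM and at most 6.74 in the other libraries. Sox10 had 106, 133 and 129 in lipid-depleted TCM, 144, 232 and 198 in TCM and 124, 123 and 122 in control. Tyr, a defining marker of pigment cells, stayed under 10 in every library. Of the 5 tested, 1 was called higher and 1 lower in TCM than in control. In lipid-depleted TCM against TCM, 1 was called higher and 1 lower. Of all genes tested, 29.5% were called higher and 31.0% lower in TCM against control, and 22.7% and 22.5% in lipid-depleted TCM against TCM. The summed level of 5 adipocyte markers was 755 to 797 in lipid-depleted TCM, 938 to 1223 in TCM and 736 to 770.1 in control. Fabp4 held the most of it. The adipocyte sum was higher in TCM, as the mitochondrial mRNAs were, but its members went both ways. Of the 5, 1 was called higher and 1 lower in TCM than in control. Adipoq had 95.1, 61.5 and 59.7 in TCM and 139, 147 and 197 in control. Lep, a defining marker, was at 0 to 1.06. The sum of 6 macrophage and leukocyte markers was 454 to 469.9 in lipid-depleted TCM. It was 252 to 303 in TCM and 308 to 395 in control, and Lyz2 held the most of it. Ptprc and Adgre1 stayed under 10. Csf1r had 6.62, 14.2 and 14.7 in lipid-depleted TCM, 10.5, 20.8 and 18.3 in TCM and 94.6, 56.7 and 85.3 in control. Cd68 had 49.6, 62.9 and 45.9 in lipid-depleted TCM, 95.1, 103 and 78.0 in TCM and 39.3, 56.7 and 33.9 in control. Of the 4 tested, 1 was called higher and 2 lower in TCM than in control. In lipid-depleted TCM against TCM, 1 was called higher and 1 lower. The sum of 6 keratinocyte markers was 70.0 to 86.0 in lipid-depleted TCM, 101 to 112 in TCM and 109 to 138 in control, with Krt1 under 10. For 6 endothelial markers it was 216 to 226 in lipid-depleted TCM, 193 to 203 in TCM and 209 to 239 in control, with Emcn under 10, and for 6 skeletal muscle markers 1574 to 1826 in lipid-depleted TCM, 1062 to 1287 in TCM and 1389.6 to 1621 in control, with Ckm under 10. Acta1 held the most of the muscle sum, with 571, 629 and 665 in TCM and 1148, 1048 and 1153 in control. Of the 6 muscle markers, 3 were called higher and 1 lower in TCM than in control, although their sum was lower. The part of these sums in the results was not tested. In these bulk samples, fewer cells of a type and less RNA per cell cannot be told apart.

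In TCM the mitochondrial mRNAs and rRNAs were higher than in control. The 37 genes held 2.84, 3.16 and 2.69% of each TCM library's normalized counts, against 1.87, 1.83 and 1.78% in control, and the groups did not overlap (two-sided exact permutation p = 0.1, the smallest that 3 against 3 allows). Of the 18 genes tested, 16 were called higher and 0 lower in TCM; in the same comparison 60.5% of all genes tested were called, 29.5% higher and 31.0% lower. All 13 protein genes and both rRNA genes were among the 16, with 1 of 3 tRNA genes. The median log2 change of the 13 protein genes was 0.60, beside a median of 0.00 over all genes tested. Of the 13, 12 had no overlap between the TCM and control libraries, a state that 63.9% of all genes shared. TCM replicate 2 was the highest TCM library for 10 of the 13; without it, 13 of the 18 genes were called higher and 0 lower.

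Complex I, NADH:ubiquinone oxidoreductase, takes electrons from NADH, and 7 of its subunits are made in the mitochondrion. The largest log2 change of a mitochondrial gene in TCM against control was that of mt-Nd2 (chromosome M, 3914 to 4951, plus strand, ENSMUSG00000064345.1), a membrane-arm subunit. Its normalized counts were 39555, 41629 and 43616 in lipid-depleted TCM, 79931, 105812 and 83207 in TCM, and 43750.3, 42567 and 42509 in control. All TCM libraries stood apart from both other groups, which lay together. The log2 change in TCM against control was 1.05 (SE 0.08, limma adjusted p = 2.8e-07), or 2.07-fold.

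mt-Nd1 (chromosome M, 2751 to 3707), the subunit at the junction of the membrane arm and the matrix arm, had normalized counts of 47827, 53415 and 55656 in lipid-depleted TCM, 92663, 121005 and 91761 in TCM, and 66369, 65757 and 64387 in control. It was highest in TCM, and its 3 lipid-depleted TCM libraries lay below all control libraries. mt-Nd4 (10167 to 11544) and mt-Nd5 (11742 to 13565) belong to the proton-pumping part of the membrane arm. mt-Nd4 had normalized counts of 80351, 99062 and 99289 in lipid-depleted TCM, 129075, 170179 and 132834 in TCM, and 86154, 84479 and 83259 in control. For mt-Nd5 they were 79340.3, 92233 and 92787 in lipid-depleted TCM, 114645, 161281 and 120701 in TCM, and 87182, 86095 and 85850.2 in control. In both genes the TCM libraries were above all others, with replicate 2 the highest. Against control, the log2 changes in TCM were 0.62 for mt-Nd1, 0.76 for mt-Nd4 and 0.60 for mt-Nd5, with SE of 0.09, 0.10 and 0.10 and limma adjusted p of 6.7e-05, 2.9e-05 and 2.9e-04 in the same order.

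The smaller complex I genes changed less evenly. mt-Nd4l, the gene printed above, had normalized counts of 5513, 6429 and 6885 in lipid-depleted TCM, 10030.2, 10163 and 8644 in TCM, and 6889, 6841 and 6745 in control, and rose by 0.49 on the log2 scale in TCM (limma adjusted p = 1.3e-04). mt-Nd3 (9459 to 9806) had 10724, 9251 and 9892 in lipid-depleted TCM, 14111, 9889 and 10505 in TCM, and 9507, 9023 and 9286 in control. All 3 TCM libraries were above all control libraries for mt-Nd3, but only TCM replicate 1 stood clear of lipid-depleted TCM. Its log2 change of 0.29 (limma adjusted p = 0.027) was called; without control replicate 2 the adjusted p was 0.079 and without control replicate 3 it was 0.062.

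mt-Nd6 (13552 to 14070) is the only protein gene on the minus strand, and its end overlaps the end of mt-Nd5 on the other strand. It was the least abundant mRNA, with normalized counts of 333, 586 and 373 in lipid-depleted TCM, 757, 1273 and 599 in TCM, and 615, 494 and 464 in control. TCM replicate 3 lay within the control range, so the groups overlapped. The log2 change in TCM was 0.68 (SE 0.25, limma adjusted p = 0.032), and without TCM replicate 2 it was 0.37 (adjusted p = 0.14). The call was also lost without control replicate 2 (adjusted p = 0.087), without control replicate 3 (0.10) and with DESeq2 (0.058). Per 100 counts of the 12 plus-strand protein genes, mt-Nd6 gave 0.0399 ± 0.0113 in lipid-depleted TCM, 0.0562 ± 0.0170 in TCM and 0.0488 ± 0.00659 in control (SD, n = 3 each), and all 3 groups overlapped. Whether the authors' counting used strand is not given in the sources used here, so reads of mt-Nd6 and of RNA from the opposite strand cannot be told apart.

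**Figure D1:**
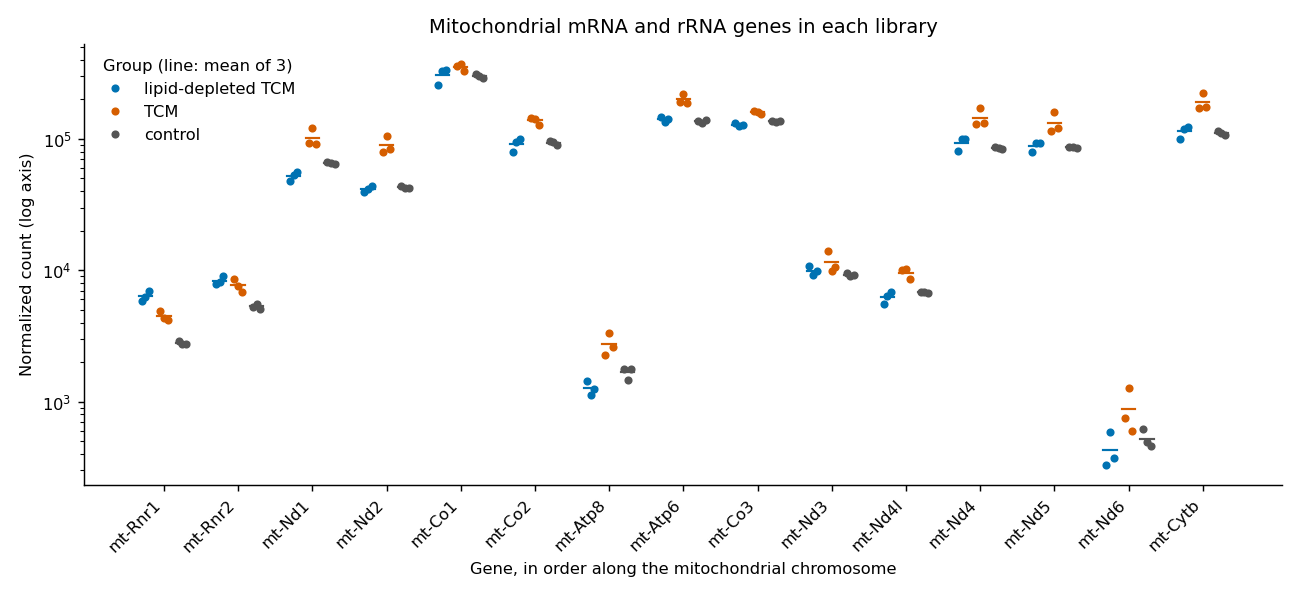
Normalized counts (log axis) of the 15 mitochondrial mRNA and rRNA genes in gene order; each point is 1 library, each line the mean of 3, for lipid-depleted TCM, TCM and control from left to right. The 3 TCM points lie above the control points for 14 of the 15 genes, mt-Nd6 being the exception, and for mt-Rnr1 the lipid-depleted TCM points are the highest.

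The remaining subunits rose in TCM as well, mt-Co1 and mt-Co3 by the least. mt-Cytb (14145 to 15288) codes for cytochrome b, the core of complex III, and had normalized counts of 100151, 119153 and 123505 in lipid-depleted TCM, 170329, 222636 and 175209.5 in TCM, and 114638, 111259 and 107174 in control. Its TCM libraries lay above all others, with a log2 change against control of 0.76 (limma adjusted p = 2.1e-05). Complex IV, cytochrome c oxidase, passes electrons to oxygen, and its 3 catalytic-core subunits come from mt-Co1, mt-Co2 and mt-Co3. mt-Co1 (5328 to 6872) had 255723, 330737 and 332212 in lipid-depleted TCM, 357369, 370825 and 326244 in TCM, and 309869.6, 302062 and 290476 in control.

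The groups lay close together for mt-Co1, and its log2 change of 0.22 in TCM was just called (limma adjusted p = 0.048). The call was lost in 9 of the 20 alternative settings, among them leaving out any control library or TCM replicate 1 or 2, with adjusted p of 0.050 to 0.14. mt-Co2 (7013 to 7696) had 78945, 94997 and 99444 in lipid-depleted TCM, 145074, 141435 and 127457 in TCM, and 95936, 93992 and 89026 in control, and mt-Co3 (8607 to 9390) had 132481, 124479 and 128079 in lipid-depleted TCM, 163828, 161244 and 155225 in TCM, and 136029, 134763 and 137538 in control. Both were higher in every TCM library than in any other library. Their log2 changes against control were 0.57 for mt-Co2 and 0.23 for mt-Co3 (limma adjusted p = 4.2e-05 and 5.2e-04).

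ATP synthase, complex V, has its a subunit from mt-Atp6 and a small membrane subunit from mt-Atp8, which share a transcript. mt-Atp6 (7927 to 8607) had normalized counts of 145589.8, 134496 and 142149 in lipid-depleted TCM, 190790.3, 219623 and 188042 in TCM, and 135516, 132648 and 139587 in control. mt-Atp8 (7766 to 7969) had 1428, 1130.5 and 1252 in lipid-depleted TCM, 2264, 3319.9 and 2600.5 in TCM, and 1759, 1460.2 and 1790.3 in control. In TCM they rose by 0.55 and 0.70 on the log2 scale (limma adjusted p = 5.8e-06 and 4.3e-04), and all TCM libraries lay above all others. Per kilobase of gene, mt-Atp6 had 199585 ± 5120.2 and mt-Atp8 8186 ± 893 in control (SD, n = 3), although the 2 share 1 transcript. How reads that touch the 43 shared bases were counted is not given in the sources used here, so the level of mt-Atp8 is uncertain.

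Compared per kilobase, the order of the mRNAs was led by the same genes in every group. mt-Atp6 was first, at 206674 ± 8338 normalized counts per kilobase in lipid-depleted TCM, 292930.0 ± 25689 in TCM and 199585 ± 5120.2 in control, followed by mt-Co1, mt-Co3, mt-Co2 and mt-Cytb. In control, mt-Atp6 and mt-Co1 overlapped and every other neighbour in the order was separated by all libraries. In TCM, mt-Nd2 ranked above mt-Nd5, with 86368 ± 13576 and 72483 ± 13903 per kilobase and libraries that overlapped; in control mt-Nd5 ranked above mt-Nd2, with 47355 ± 389 and 41370.0 ± 675 and no overlap. mt-Nd6 was the lowest of the 15 genes in each group. Both rRNAs ranked below all plus-strand mRNAs in TCM and control, with 2921 ± 77.8 per kilobase for mt-Rnr1 and 3353 ± 149 for mt-Rnr2 in control. The labels name a stranded TruSeq kit but not whether poly(A) selection or rRNA depletion was used, so the place of the rRNAs in this order is their place in the libraries.

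In lipid-depleted TCM, most mRNAs were lower than in TCM and lay near control, while neither rRNA was called lower. The labels name no control medium treated with Cleanascite, so lipid removal and other effects of that treatment cannot be told apart. Lipid-depleted TCM and TCM are compared on the same TCM libraries that entered TCM against control. Of the 18 genes tested, 11 were called lower and 1 higher in lipid-depleted TCM than in TCM; in this comparison 45.2% of all genes tested were called, 22.7% higher and 22.5% lower. All 11 were protein genes, the 1 was mt-Rnr1, and of the 3 tRNA genes 0 were called. The same 11 protein genes had no overlap between lipid-depleted TCM and TCM libraries, as had 52.4% of all genes. The median log2 change of the 13 protein genes was -0.62, beside 0.01 over all genes tested. The 37 genes held 1.85, 2.11 and 2.15% of each lipid-depleted TCM library, below all 3 TCM libraries (two-sided exact permutation p = 0.1).

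The sizes differed between genes, as in TCM against control. mt-Nd2 fell by 1.10 in log2 units (SE 0.08, limma adjusted p = 4.9e-07) and mt-Atp8 by 1.09 (SE 0.13, limma adjusted p = 2.1e-05). mt-Nd6 and mt-Nd1 followed with log2 changes of -0.99 and -0.95 (limma adjusted p = 0.0059 and 3.6e-06). Those of mt-Cytb, mt-Nd4, mt-Nd4l, mt-Co2, mt-Nd5, mt-Atp6 and mt-Co3 ran from -0.72 to -0.32, all called. The 2 protein genes not called were mt-Co1, with -0.21 (SE 0.09, limma adjusted p = 0.080), and mt-Nd3, with -0.19 (SE 0.10, limma adjusted p = 0.15); in both the libraries of the groups overlapped. Without TCM replicate 2, mt-Nd3 was called as well, at -0.29 (adjusted p = 0.031).

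**Figure D2:**
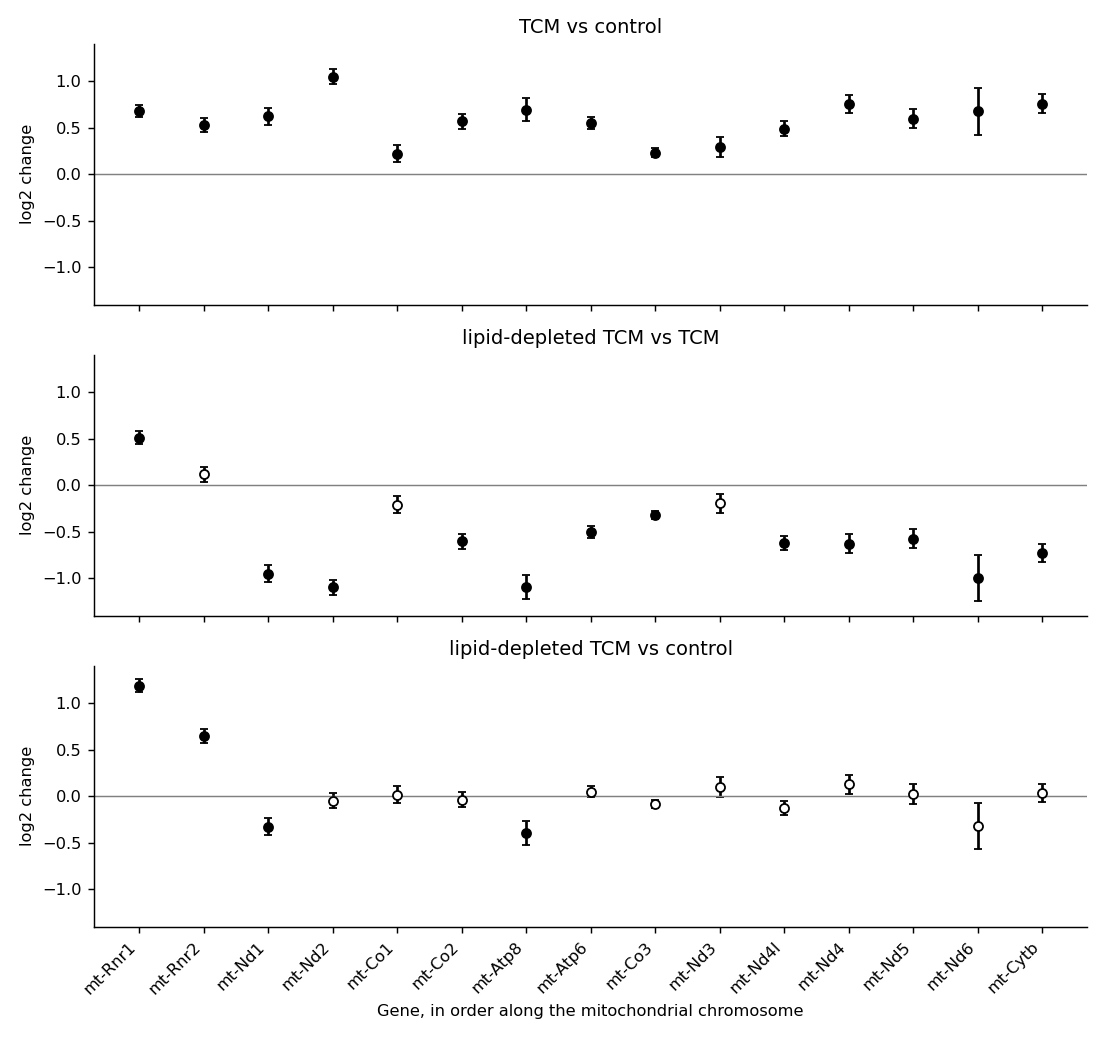
Log2 change ± SE of the 15 mitochondrial mRNA and rRNA genes in gene order, for TCM against control (top), lipid-depleted TCM against TCM (middle) and lipid-depleted TCM against control (bottom); filled points were called at an adjusted p below 0.05, open points were not. All 15 genes lie above 0 in the top panel, all 13 protein genes lie below 0 in the middle panel, and mt-Rnr1 is above 0 in every panel.

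Against control, lipid-depleted TCM left most mRNAs without a call. Of the 18 genes tested, 3 were called higher and 2 lower; in this comparison 60.0% of all genes tested were called, 29.4% higher and 30.6% lower. The 3 higher genes were mt-Rnr1, mt-Rnr2 and mt-Tw, and the 2 lower ones mt-Nd1 and mt-Atp8. Of the 13 protein genes, 3 had no overlap between lipid-depleted TCM and control (mt-Nd1, mt-Atp8 and mt-Co3), against 71.2% of all genes. The median log2 change of the 13 protein genes was -0.04, beside 0.00 over all genes tested. The summed normalized count of the 13 protein genes was 1073566 ± 83934 in lipid-depleted TCM, 1530859 ± 147296 in TCM and 1074582 ± 18264 in control (SD, n = 3 each). For mt-Nd2 the log2 change was -0.05 with an SE of 0.08, and for mt-Cytb 0.04 with an SE of 0.10; a missed threshold does not show that the levels were equal.

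The 2 lower calls were lost under another scaling. mt-Nd1 had a log2 change of -0.33 (SE 0.09, limma adjusted p = 0.0076) and mt-Atp8 of -0.40 (SE 0.13, limma adjusted p = 0.017). Leaving out control replicate 1, control replicate 3 or lipid-depleted TCM replicate 2 ended the call of mt-Atp8, with adjusted p of 0.062, 0.070 and 0.081. With every library scaled to the same total the log2 changes of mt-Nd1 and mt-Atp8 were -0.18 and -0.25, neither called, while mt-Atp6 (0.20) and mt-Nd4 (0.28) were called higher. That scaling moved the median log2 change of all genes by 0.15 here, by 0.16 in TCM against control, and by -0.01 between the 2 TCM groups. With it, 65.6%, 66.3% and 48.2% of all called genes were higher, in the same order, against 49.0%, 48.7% and 50.2% with the authors' size factors. The 16 higher calls in TCM against control, and the 11 lower and 1 higher in lipid-depleted TCM against TCM, were as many under either scaling.

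In these libraries the counts of the ribosomal RNAs took a different course from those of the mRNAs. The labels do not say whether poly(A) selection or rRNA depletion was used, so these are the rRNA reads left in the libraries. The part of library preparation in the rRNA counts, and in their ratios below, was not tested. mt-Rnr1 (70 to 1024) gives the RNA of the small ribosomal subunit, and its normalized counts were 5881, 6277 and 6961 in lipid-depleted TCM, 4888, 4331 and 4199 in TCM, and 2875, 2742 and 2750.5 in control. The 3 groups did not overlap: lipid-depleted TCM was highest, TCM lay in between and control was lowest. The log2 change was 0.68 in TCM against control (limma adjusted p = 2.2e-06), 0.51 in lipid-depleted TCM against TCM (limma adjusted p = 6.0e-05) and 1.19 in lipid-depleted TCM against control (SE 0.07, limma adjusted p = 1.0e-08), the last being 2.28-fold.

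mt-Rnr2 (1094 to 2675), the RNA of the large ribosomal subunit, had normalized counts of 7848, 8083 and 9020.3 in lipid-depleted TCM, 8629, 7548 and 6889.7 in TCM, and 5303, 5542 and 5070.0 in control. It was higher in TCM and in lipid-depleted TCM than in control, and those 2 groups overlapped each other. The log2 change was 0.53 in TCM against control (limma adjusted p = 5.7e-05), 0.65 in lipid-depleted TCM against control (limma adjusted p = 9.6e-06) and 0.12 in lipid-depleted TCM against TCM (limma adjusted p = 0.24). Without TCM replicate 1, the highest TCM library for both rRNAs, that last change was 0.20 (adjusted p = 0.010).

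Set against the mRNAs within each library, which no scaling affects, the 2 rRNAs gave 1.40, 1.30 and 1.41 counts per 100 counts of the 13 protein genes in lipid-depleted TCM, 0.919, 0.699 and 0.779 in TCM and 0.747, 0.773 and 0.739 in control. The ratio in lipid-depleted TCM was 1.71 times that in TCM and 1.82 times that in control, without overlap in either case. TCM and control overlapped (two-sided exact permutation p = 0.7). The balance of the 2 rRNAs differed too: mt-Rnr1 per 100 counts of mt-Rnr2 was 74.9, 77.7 and 77.2 in lipid-depleted TCM, 56.6, 57.4 and 60.9 in TCM and 54.2, 49.5 and 54.2 in control. No 2 groups overlapped (two-sided exact permutation p = 0.1 in each comparison). These sums are among 66 exact tests of values per library, of which 42 reached 0.1; after Benjamini-Hochberg adjustment the lowest was 0.157. The 2 genes are neighbours, parted by mt-Tv alone, which had 0 reads in every library.

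**Figure D3:**
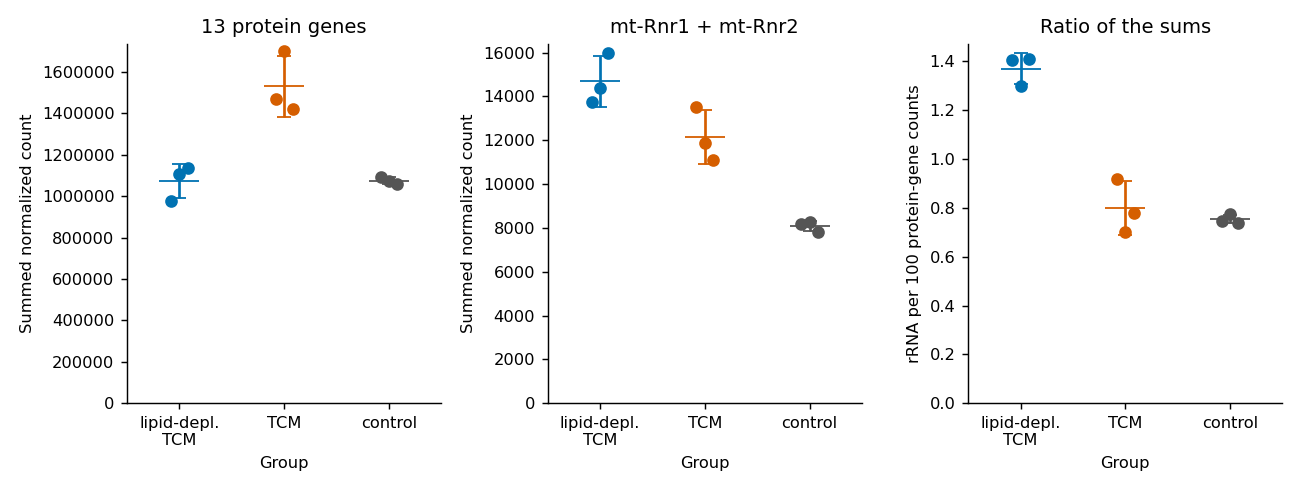
Summed normalized counts of the 13 mitochondrial protein genes (left) and of mt-Rnr1 and mt-Rnr2 (middle), and rRNA counts per 100 protein-gene counts (right), in lipid-depleted TCM, TCM and control; points are libraries, bars the mean ± SD of 3. The protein-gene sum is highest in TCM, whereas the rRNA sum and the ratio are highest in lipid-depleted TCM.

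Summed by complex, complex IV genes made up less, and complex I and III genes more, of the mRNA counts in TCM than in both other groups. Not every member followed its sum, as given gene by gene below. Of the summed counts of the 13 protein genes, the 7 complex I genes held 27.0, 27.3 and 27.2% in lipid-depleted TCM, 30.0, 34.1 and 31.5% in TCM and 27.5, 27.6 and 27.6% in control. The 3 complex IV genes held 47.8, 49.7 and 49.3% in lipid-depleted TCM, 45.3, 39.6 and 42.8% in TCM and 49.5, 49.5 and 48.9% in control. mt-Cytb, the complex III gene, held 10.2, 10.8 and 10.9% in lipid-depleted TCM, 11.6, 13.1 and 12.3% in TCM and 10.5, 10.4 and 10.1% in control. TCM did not overlap with either other group for complexes I, III and IV (two-sided exact permutation p = 0.1 each). The 2 complex V genes held 13.3 ± 1.51% in lipid-depleted TCM, 13.2 ± 0.157% in TCM and 12.8 ± 0.480% in control (SD, n = 3 each) and all groups overlapped. Shares sum to 100, so a rise of some genes lowers the share of others.

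Gene by gene, mt-Nd2 held 4.04, 3.76 and 3.84% of the sum in lipid-depleted TCM, 5.43, 6.23 and 5.85% in TCM and 3.97 to 4.02% in the 3 control libraries. mt-Co1 held 28.4 ± 1.99% in lipid-depleted TCM, 23.0 ± 1.24% in TCM and 28.0 ± 0.468% in control (SD, n = 3 each), the lowest share being that in TCM. mt-Co2, also of complex IV, held 8.47 ± 0.356% in lipid-depleted TCM, 9.05 ± 0.773% in TCM and 8.65 ± 0.206% in control. mt-Nd3, of complex I, held 0.934 ± 0.142% in lipid-depleted TCM, 0.760 ± 0.190% in TCM and 0.863 ± 0.0185% in control. For both mt-Co2 and mt-Nd3 all groups overlapped. Between TCM and control, 6 of the 13 shares did not overlap: those of mt-Nd1, mt-Nd2, mt-Nd4 and mt-Cytb were larger in TCM, and those of mt-Co1 and mt-Co3 smaller. Between lipid-depleted TCM and TCM, 6 did not overlap: those of mt-Nd1, mt-Nd2, mt-Atp8 and mt-Cytb were smaller in lipid-depleted TCM, and those of mt-Co1 and mt-Co3 larger. Between lipid-depleted TCM and control, 3 did not overlap. The share of mt-Nd1 was smaller in lipid-depleted TCM, at 4.87 ± 0.0433% against 6.10 ± 0.0371% in control, as was that of mt-Nd4l, at 0.584 ± 0.0216% against 0.635 ± 0.00492%, and that of mt-Nd4 was larger, at 8.64 ± 0.376% against 7.88 ± 0.00812%. Of these 39 exact tests of shares, 15 reached the smallest p of 0.1, and after Benjamini-Hochberg adjustment the lowest was 0.26.

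**Figure D4:**
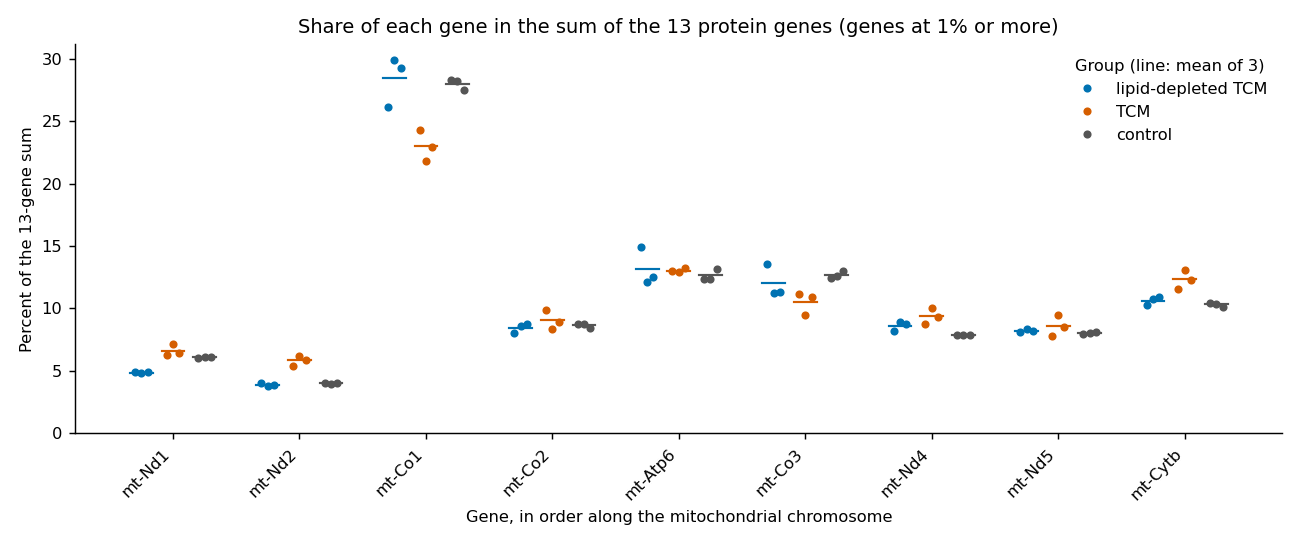
Share of each gene, in percent, in the summed normalized counts of the 13 mitochondrial protein genes, for the genes that held 1% or more in control; points are libraries, lines the mean of 3, for lipid-depleted TCM, TCM and control from left to right. In TCM the share of mt-Nd2 is above and that of mt-Co1 below both other groups.

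Properties of the 13 protein genes were set beside their changes. Length and level were taken as log2, and level was the mean normalized count over all libraries per kilobase of gene. In TCM against control, Pearson's r of the log2 change across the 13 genes was 0.11 with gene length and -0.29 with GC content. It was 0.01 with position on the chromosome and -0.25 with level. In the same order, r was 0.19, 0.35, 0.09 and 0.52 in lipid-depleted TCM against TCM. In lipid-depleted TCM against control r was 0.50, 0.25, 0.19 and 0.61. The genes share their libraries and their precursor RNA, so these values only describe the 13 points. Of neighbours, chosen after their values were seen, the consecutive protein genes mt-Nd2 and mt-Co1 gave 1.05 and 0.22 (SE 0.08 and 0.09) in TCM against control, whereas mt-Co3 and mt-Nd3 gave 0.23 and 0.29 (SE 0.04 and 0.10).

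The tRNA genes, 59 to 75 bases long, were barely covered: all 22 together had 808 reads over the 9 libraries, of 11288292 for the 37 genes. For 10 of them (mt-Tf, mt-Tv, mt-Tl1, mt-Tc, mt-Tk, mt-Tg, mt-Tr, mt-Th, mt-Ts2 and mt-Tl2) every library had 0 reads; how the kit and the counting treat RNAs this short is not given in the sources used here. A count of 0 allows up to 3 reads per library, counting error only. Sorted by layout, a split made after the values were seen, all 8 tRNA genes with a gene on the same strand within 3 bases on both sides were at 0, whereas 12 of the other 14 had reads. By strand, 7 of 8 on the minus strand and 5 of 14 on the plus strand had reads.

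Among the tRNA genes with reads, mt-Tw, which follows mt-Nd2 and overlaps its last 2 bases, had normalized counts of 39.7, 49.7 and 48.8 in lipid-depleted TCM, 41.8, 46.4 and 40.4 in TCM, and 18.1, 32.4 and 35.0 in control. It was higher in every TCM and lipid-depleted TCM library than in any control library. The log2 change was 0.62 in TCM against control (SE 0.25, limma adjusted p = 0.045) and 0.72 in lipid-depleted TCM against control (SE 0.25, limma adjusted p = 0.024). Both calls were lost without control replicate 1, at 0.34 and 0.43 (adjusted p = 0.20 and 0.11). The call in TCM against control was lost in 9 further settings, including without any 1 of the TCM or lipid-depleted TCM libraries, with adjusted p of 0.054 to 0.10. That in lipid-depleted TCM against control was also lost with no filter (0.059) and without lipid-depleted TCM replicate 2 (0.074) or 3 (0.072).

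mt-Ts1 had 9.93, 18.2 and 15.6 in lipid-depleted TCM, 19.0, 11.4 and 13.5 in TCM, and 27.6, 8.11 and 15.3 in control, and the groups overlapped with 0 calls. mt-Tp passed the filter through 3 libraries only, with 2.48, 23.3 and 13.7 in lipid-depleted TCM, 1.90, 37.8 and 3.85 in TCM, and 6.37, 2.32 and 2.19 in control, and was not called either (limma adjusted p = 0.23 to 0.75 over the 3 comparisons). mt-Tq, not tested, had 1.65, 12.2 and 2.93 in lipid-depleted TCM, 3.80, 28.4 and 3.85 in TCM, and 1.06, 0 and 3.28 in control. For mt-Tp and mt-Tq, replicate 2 was the highest library in TCM and in lipid-depleted TCM. The other 8 with reads (mt-Tt, mt-Ti, mt-Ta, mt-Te, mt-Td, mt-Tm, mt-Tn and mt-Ty) had 1 to 48 reads each in all 9 libraries together.

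Reads from all or part of 7 protein genes also match annotated nuclear copies. The annotation holds 16 nuclear pseudogenes that match a mitochondrial gene at 90% identity or more over at least 80% of their length, and 7 of these, at 99% or more, lie together on the minus strand of chromosome 1, between 24611535 and 24616197 (GRCm38). Together the 16 held 1.10, 1.18 and 1.21% of each library in lipid-depleted TCM, 1.60, 1.68 and 1.49% in TCM and 1.06, 1.04 and 1.02% in control. The 2 with the highest mean were Gm10925, identical to 678 bases of mt-Atp6, and Gm28437, identical to 783 bases of mt-Co3. Gm28437 had 160830, 123573 and 131672 reads in lipid-depleted TCM, 173513, 171607 and 162191 in TCM and 128862, 117042 and 126632 in control, which was 100.4 to 101 reads per 100 of mt-Co3 in each library.

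Other copies, named after their values were seen, had as many reads as their genes or more. Gm10222, the copy of mt-Nd4l, had 0 to 8 reads more than mt-Nd4l in each library, Gm28438 had 0 to 13 more than mt-Nd3, and Gm28661 had 12 to 28 more than mt-Co2. Gm10925 had 125 to 138 reads per 100 of mt-Atp6. How the authors counted reads that match several places is not given in the sources used here. In TCM against control the log2 change was 0.61 for Gm10925 beside 0.55 for mt-Atp6, and 0.23 for Gm28437 beside 0.23 for mt-Co3. Less similar copies on chromosome 2, also named after their values were seen, went both ways. Gm13341 (95.9% identical to mt-Co2) and Gm13339 (96.7% identical to part of mt-Nd2) had log2 changes in TCM against control of 0.39 and 1.15 (limma adjusted p = 0.0011 and 9.9e-07), the sign of their genes. Gm13340 (97.6% identical to mt-Co1) had 11705, 13109 and 13673 reads in lipid-depleted TCM, 12579, 7116 and 8341 in TCM and 12098, 10662 and 9974 in control, a log2 change in TCM against control of -0.47 (limma adjusted p = 0.031).

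**Figure D5:**
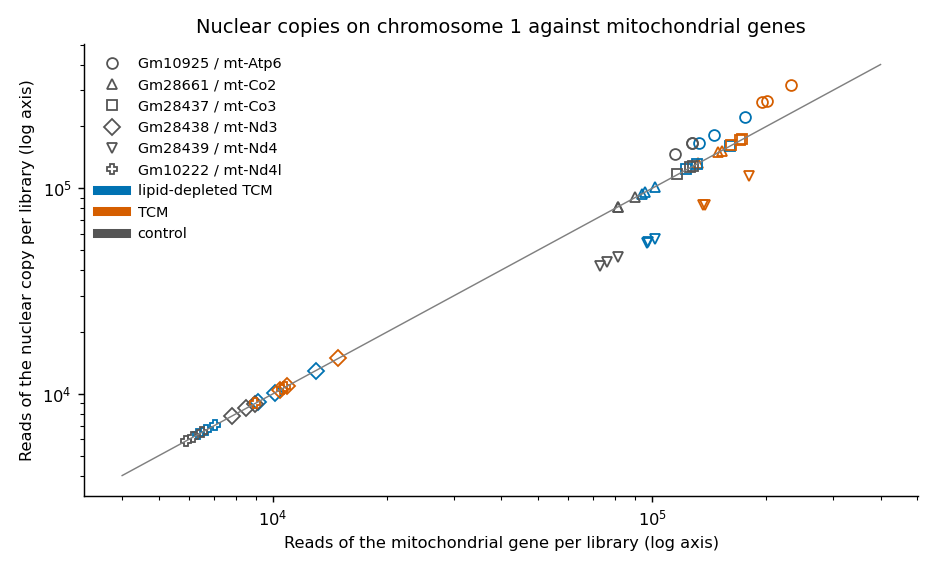
Reads per library of 6 nuclear copies on chromosome 1 (y, log axis) against reads of the mitochondrial gene they match (x, log axis); marker shape gives the pair and color the group, and the line marks equal reads. Points of the mt-Co2, mt-Co3, mt-Nd3 and mt-Nd4l pairs lie on the line, those of mt-Atp6 above it and those of mt-Nd4, of which the copy covers a part, below it.

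Genes without such an annotated copy were called as well. The 6 protein genes with no annotated copy at 99% identity or more were mt-Nd1, mt-Nd2, mt-Nd5, mt-Nd6, mt-Cytb and mt-Atp8. Unannotated copies were not searched for. On the mitochondrial chromosome mt-Atp8 lies between mt-Co2 and mt-Atp6, whose copies are neighbours on chromosome 1. All 6 were called higher in TCM than in control, with a median log2 change of 0.69. All 6 were called lower in lipid-depleted TCM than in TCM, with a median of -0.97. Of the 7 with a copy at 99% identity or more, 7 were called higher in TCM, with a median of 0.49. In lipid-depleted TCM against TCM 5 of the 7 were called lower, with a median of -0.50 over the 7. With the reads of the copies added to their genes, 15 of 18 genes were called higher in TCM than in control, mt-Co1 losing its call at 0.19 (adjusted p = 0.080). The difference in change between genes with and without annotated copies at 99% identity or more was not tested.

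Nuclear genes for the respiratory chain and ATP synthase were called in both directions. Complex II, for which the mitochondrial chromosome has no gene, is counted among them. Of 79 nuclear subunits of complexes I to V tested, 18 were called higher and 24 lower in TCM than in control, 17 higher and 12 lower in lipid-depleted TCM than in TCM, and 20 higher and 13 lower in lipid-depleted TCM than in control. As shares these were 22.8% higher and 30.4% lower, 21.5% higher and 15.2% lower, and 25.3% higher and 16.5% lower, beside 29.5% higher and 31.0% lower, 22.7% higher and 22.5% lower, and 29.4% higher and 30.6% lower of all genes tested; in TCM against control both shares were below those of all genes. Their median log2 changes were 0.00, 0.06 and 0.01 in these comparisons. By complex, in TCM against control, 7 were called higher and 11 lower of 36 for complex I, 2 were called higher and 1 lower of 4 for complex II, 4 were called higher and 2 lower of 9 for complex III, 3 were called higher and 5 lower of 15 for complex IV and 2 were called higher and 6 lower of 16 for complex V. Ndufa4 stands in the lists of complexes I and IV and is counted in each, but only 1 time in the 79. Ndufa12, an accessory subunit of complex I, averaged 2152 ± 224 in TCM and 1343 ± 63.0 in control (log2 change 0.68, limma adjusted p = 5.9e-06). Atp5e, the epsilon subunit of ATP synthase, averaged 1121 ± 254 in TCM and 1917 ± 107 in control (log2 change -0.80, limma adjusted p = 9.6e-05). Uqcrb of complex III was higher in TCM than in control by 0.50 and had a log2 change of -0.53 in lipid-depleted TCM against TCM (limma adjusted p = 1.8e-04 and 2.0e-04).

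In the lists of nuclear genes that copy, read and process the mitochondrial genome, more members were called higher than lower in TCM against control, where 29.5% of all genes were called higher and 31.0% lower. Among genes of mtDNA replication and nucleotide supply, 10 of 15 were called higher and 2 lower in that comparison, with a median log2 change of 0.36. Ssbp1, which coats single-stranded mitochondrial DNA, averaged 1817 ± 195 in TCM and 1078 ± 10.5 in control (log2 change 0.75, limma adjusted p = 1.1e-06), and in lipid-depleted TCM against TCM its log2 change was -0.45 (limma adjusted p = 1.7e-04). Mgme1, a nuclease of mitochondrial DNA, had a log2 change of 0.72 in TCM, and Tk2, the mitochondrial thymidine kinase, of 0.83 in lipid-depleted TCM against control (limma adjusted p = 4.7e-06 and 9.6e-08). Of the transcription genes, 4 of 9 were called higher and 1 lower, also in TCM against control. Mterf4, which acts on the mitochondrial ribosome's rRNA, rose by 0.52 in TCM and 0.40 in lipid-depleted TCM, both against control (limma adjusted p = 2.8e-05 and 2.7e-04). Tfb2m, a factor needed for the RNA polymerase to start, averaged 1743 ± 124 in lipid-depleted TCM and 1432 ± 65.7 in TCM (log2 change 0.28, limma adjusted p = 0.0020), the 1 transcription gene called in that comparison.

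Of the genes for processing and decay of mitochondrial RNA, 11 of 22 were called higher and 2 lower in TCM against control, and in lipid-depleted TCM against TCM, 2 of 22 were called higher and 6 lower. Of all genes, 22.7% were called higher and 22.5% lower in lipid-depleted TCM against TCM. Pnpt1, the mitochondrial polynucleotide phosphorylase, averaged 1366 ± 27.7 in lipid-depleted TCM and 2061 ± 214 in TCM (log2 change -0.59, limma adjusted p = 1.8e-05). Rexo2, which degrades short RNA fragments in mitochondria, averaged 2786 ± 61.8 in lipid-depleted TCM, 3304 ± 349 in TCM and 5401 ± 152 in control, with log2 changes against control of -0.95 and -0.71 (limma adjusted p = 4.8e-08 and 8.2e-07). Among genes that modify mitochondrial tRNA and rRNA, 13 of 24 were called higher and 2 lower in TCM against control. Trmt61b, a methyltransferase of mitochondrial RNAs, rose by 1.18 in TCM and 1.19 in lipid-depleted TCM, both against control (limma adjusted p = 2.0e-06 and 1.7e-06). Tfb1m, which dimethylates the small-subunit rRNA, averaged 366 ± 8.28 in lipid-depleted TCM and 218 ± 35.5 in control (log2 change 0.75, limma adjusted p = 5.6e-05).

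The counts of the next lists stand beside these shares of all genes. In TCM against control 29.5% were called higher and 31.0% lower, and in lipid-depleted TCM against TCM 22.7% higher and 22.5% lower. For the mitochondrial ribosome, 34 of 77 were called higher and 6 lower in TCM against control. In lipid-depleted TCM against TCM 9 of 77 were called higher and 18 lower, the lower count being near the share of all genes. Mrpl24 had a log2 change of 0.92 in lipid-depleted TCM against control, and Mrpl54 one of -0.77 in TCM against control (limma adjusted p = 4.0e-09 and 3.1e-05). Of the translation factors, 6 of 14 were called higher and 0 lower, and of the aminoacyl-tRNA synthetases, 7 of 20 were called higher and 3 lower, both in TCM against control. Of the biogenesis regulators, 4 of 9 were called higher and 0 lower in TCM against control, and in lipid-depleted TCM against TCM 1 of 9 were called higher and 4 lower. Myc, a transcription factor of growth, averaged 3135 ± 199.8 in lipid-depleted TCM, 4550.2 ± 635 in TCM and 2322 ± 89.3 in control, with log2 changes of 0.96 in TCM against control and -0.53 in lipid-depleted TCM against TCM (limma adjusted p = 8.4e-07 and 3.1e-04). Of the membrane and matrix markers, 9 of 16 were called higher and 1 lower in TCM against control, and in lipid-depleted TCM against TCM 1 of 16 were called higher and 7 lower. Hspd1 and Hspe1, the matrix chaperonin and its partner, rose by 1.05 and 1.12 in TCM against control (limma adjusted p = 5.0e-09 and 1.3e-08).

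Across all of these nuclear lists, 284 genes were tested; 116 were called higher and 41 lower in TCM than in control, 37 higher and 60 lower in lipid-depleted TCM than in TCM, and 106 higher and 43 lower in lipid-depleted TCM than in control. As shares these were 40.8% higher and 14.4% lower, 13% higher and 21.1% lower, and 37.3% higher and 15.1% lower, beside 29.5% higher and 31.0% lower, 22.7% higher and 22.5% lower, and 29.4% higher and 30.6% lower of all genes tested. Their median log2 changes were 0.12, -0.02 and 0.11. With every library scaled to the same total, the counts in these comparisons were 183 higher and 20 lower, 34 higher and 64 lower, and 167 higher and 15 lower, with 42.8% higher and 21.7% lower, 21.6% higher and 23.1% lower, and 41.6% higher and 21.8% lower of all genes. Of the RNAs retained in the nucleus, 3 of 6 were called higher and 2 lower in TCM against control. Neat1 and Malat1 were higher in TCM than in control, with log2 changes of 1.22 and 0.54 (limma adjusted p = 5.2e-05 and 0.0081). In lipid-depleted TCM against TCM, 1 of 6 was called higher and 1 lower. Meg3 was the higher one, with a log2 change of 0.63 (limma adjusted p = 0.0034). Malat1 was the lower one, with a log2 change of -0.47 (limma adjusted p = 0.022). The part of these RNAs in the changes of the mitochondrial genes was not tested.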

How the data were processed

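RNA of 9 libraries (3 groups of 3, grouped by the treatment label) was extracted with Qiagen RNeasy kits and prepared with a TruSeq Stranded RNA kit, per the labels' protocols. The submitters' processing notes name STAR 2.7.9a, the mm10 build, Trim Galore 0.6.6, DESeq2 and FastQC. The counting tool, its annotation, its strand setting and its handling of reads with several matches are each not given in the sources used here. The authors deposited 1 table of normalized counts, a signal scaled per library. Its values are whole multiples of 1 step per library (100% within 0.01). Each step equals 1 over the library's median-of-ratios size factor, so read counts could be recovered. Recovered depth was 51015024 to 64965906 reads per library, and with no molecular identifiers the limits given for a count of 0 cover counting error only. Replicates of a group differed by more than sampling noise.

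Gene names were matched to GENCODE M21 (GRCm38) for 55141 of 55401 identifiers. Nuclear copies were found among annotated transcripts with blastn 2.17.0+ (at least 90% identity over at least 80% of the copy). Genes with at least 10 in at least 3 of 9 libraries were fitted with limma 3.58.1 (R 4.3.3) on log2(value + 1), with a variance trend, 3 group means and 6 residual degrees of freedom. A gene was called at a Benjamini-Hochberg adjusted p-value below 0.05 over all genes tested. The fit was tested on simulated data. Single values per library were compared with two-sided exact permutation tests; the ratios between rRNA and protein genes were added after the values were seen. The alternatives tried were no filter or a filter at 50, pseudocounts of 0.5 and 5, same-total and TMM scaling, edgeR 4.0.16 and DESeq2 1.42.0 on recovered reads, fits of the groups compared only, a replicate block, copies added to their genes, and each library left out. From each nuclear list, the 2 called members with the largest log2 change per comparison and a mean in the higher group of 50 or more could be named, and of the nuclear copies the 2 with the highest mean. Members and lists were chosen with earlier results of these data known.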

Additional observations from a re-analysis of the deposited data

How the results depend on the processing

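Under 20 alternatives for each comparison, no called change of a mitochondrial gene turned its direction. Mitochondrial genes called in TCM against control ranged from 13 to 15 with 1 library left out and from 13 to 16 over all alternatives, all higher. In lipid-depleted TCM against TCM the range was 12 to 13 in each case. In lipid-depleted TCM against control 5 genes were called with all libraries, 3 (2 higher, 1 lower) without control replicate 1 and 3 (2 higher, 1 lower) without lipid-depleted TCM replicate 2, a range of 3 to 5 with 1 library left out. Fitting only the groups compared gave 7 (4 higher, 3 lower), with mt-Nd3 and mt-Co3 added; the cause was not tested. The weak calls were those of mt-Tw, mt-Co1, mt-Nd3 and mt-Nd6 in TCM against control, and of mt-Tw, mt-Atp8 and mt-Nd1 in lipid-depleted TCM against control. DESeq2 on recovered reads called 14, 12 and 5 mitochondrial genes in the 3 comparisons, and edgeR 16, 12 and 5. The replicate numbers did not pair the libraries: correlations of the deviations of same-numbered libraries ran from -0.025 to 0.027. With the replicate block 15, 12 and 5 mitochondrial genes were called, mt-Co1 losing its call in TCM against control (log2 change 0.22, adjusted p = 0.053). Most tRNA genes had under 10 normalized counts in every library.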
